A study of Mus musculus with 20 samples.

Results

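Treatment to delete Ubf in primary mouse embryo fibroblasts (MEFs) was followed on 10 of the 20 arrays of the series. Of these, 5 were of a Ubf fl/fl line and 5 of a Ubf wt/wt line. Both lines were Er-cre +/+ and were made from embryos at E14.5. Both were treated with 50 nM 4-hydroxytamoxifen (4-HT) for 4 h and harvested 0, 24, 48, 72 and 96 h post 4-HT treatment (pHT). The study describes 0 h pHT as a time before Ubf recombination, so the 0 h cells may have had no drug. ER-Cre is a recombinase that stays outside the nucleus until 4-HT is bound, so the Ubf wt/wt line carried the same recombinase and the same drug with no floxed exons to lose. There was 1 line per genotype and 1 array per line and time, so what one line did over time for reasons of its own and what it did for lack of Ubf cannot be told apart. Primary MEFs are a mixed culture of embryo cells, mostly fibroblasts, that keep p53 and Rb function and stop dividing after few passages. The other 10 arrays came from iMEFs, immortalized by SV40 T antigens, with the same genotypes and times.

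UBF is an HMG-box protein that binds along the ribosomal RNA genes, keeps their chromatin open and takes part in the assembly of the RNA polymerase I (RPI) initiation complex. RPI transcription supplies the rRNA of new ribosomes, and a shortage of rRNA is known to slow growth and to engage p53 in cells that have it. Fibroblasts are also known to answer stress and wounding with secreted acute-phase proteins and chemokines.

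Genes were described by a contrast of log2 levels. It is the fl/fl minus wt/wt difference averaged over the late times (72 and 96 h) less the same difference averaged over the early times (0, 24 and 48 h). The groups of genes below were chosen by this contrast on these same arrays, so their MEF values are a description and carry no test, and words such as higher, lower, increased and decreased describe these arrays only. A gene was called past the fold when the contrast was at least 1 (2-fold) in size and both late differences lay outside the range of the 3 early ones. The ± values of single genes are limma standard errors from the scatter between times (3 early and 2 late differences), not between cultures. Of 15272 genes measured, 108 (0.707%) were past the fold and higher and 288 (1.89%) were past the fold and lower. The median contrast over all genes was 0.09, with 9107 genes above 0 and 6165 below. From early to late 6873 genes decreased and 8399 increased in fl/fl cells, and 9096 and 6176 did so in wt/wt cells. Counts of signs below are to be read against these. Genes with both late differences above, or both below, all early ones made up 25% and 18.4% of all genes, and these shares are the background for every such count below. Just inside the fold lay Hvcn1 (1.0016) and Zfp9 (-1.0005), and just outside it Cyp2d22 (0.9976) and Ubxn2b (-0.9985).

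The probe set of Ubtf, the gene of UBF, read 10.65, 10.55, 10.58, 10.53 and 10.65 at 0, 24, 48, 72 and 96 h in fl/fl cells and 10.75, 10.60, 10.46, 10.22 and 10.22 in wt/wt cells. Its level did not drop in the floxed line, and the position of its probes relative to the floxed exons is not known from the sources used here. The probe set is thus no check of the deletion, and these arrays do not show the loss of Ubf in the primary MEFs. All 15 fibroblast markers listed were over the 40th percentile on every one of the 10 MEF arrays, and their median contrast was 0.09.

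The 96 h difference stood apart from the others. The SD over genes of the fl/fl minus wt/wt difference was 0.37, 0.23, 0.31 and 0.30 at 0, 24, 48 and 72 h and 0.49 at 96 h. Relative to the early mean, 44 genes were at least 1 higher and 60 at least 1 lower at 72 h, against 251 and 1285 at 96 h. Of the latter, 931 were at -1 or below at 96 h while above -0.5 at 72 h. The step of the MEF difference from 72 to 96 h also correlated across the 15272 genes with steps between iMEF arrays that share no cells with it, with r = -0.63, 0.55, 0.25 and -0.18 for the consecutive steps of fl/fl iMEFs and 0.09, -0.52, 0.60 and 0.04 for those of wt/wt iMEFs. The correlation was far from 0 in the steps into and out of the 24 h array of fl/fl and the 48 h array of wt/wt iMEFs and closer to 0 in the others. Genes are not independent and all arrays were normalized together, so these r are descriptions, and their part in the 96 h values was not tested. For this reason most contrasts of single genes below are given with their 72 h and 96 h differences, in that order, written as a contrast from the one and the other. Where a list is given by its median alone, that median is the contrast.

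**Figure D1:**
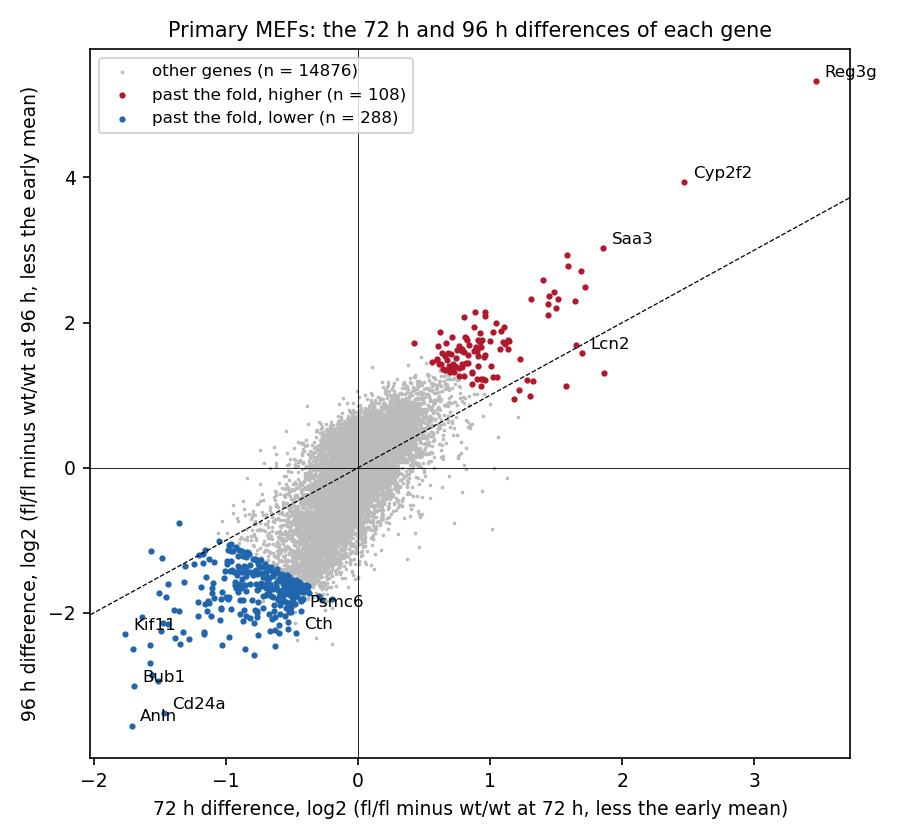
Difference between fl/fl and wt/wt MEFs at 96 h (vertical axis) against 72 h (horizontal axis), each less the early mean, in log2 units, for 15272 genes. The dashed line marks equal values. Most genes past the fold lie beyond it, with larger differences at 96 h, and Lcn2 lies just below it.

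Among the 108 higher genes, 39 were already at least 1 higher at 72 h, and the 96 h difference exceeded the 72 h difference in 100. In 106 of them fl/fl cells themselves increased from early to late, and in 71 of these the wt/wt level decreased over the same interval. Among the 288 lower genes, 58 were already at -1 or below at 72 h and 282 had the larger difference at 96 h. The fl/fl line itself decreased in 261, while in 206 the wt/wt line increased. In 140 of the 288 the change in wt/wt cells was the larger of both in size, against 29 of the 108 higher genes. The lower group thus rested on the control line's own course in more of its members than the higher group did. These signs follow in part from how the genes were chosen.

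The group with the lowest median was the list of 76 measured genes of mitosis and cytokinesis. Its median contrast was -0.93 ± 0.20 (SE of the contrast of the list medians, from 3 early and 2 late times), at -0.82 at 72 h and -1.05 at 96 h, against 0.02 and 0.15 over all genes. Of the 76, 70 had a contrast below 0, 67 lay below the early range at both late times and 35 were past the fold, all lower. The 24 h array of fl/fl cells had a list median of 9.36, and the level then went to 7.62 at 48 h, 6.65 at 72 h and 6.36 at 96 h. In wt/wt cells it went from 9.06 at 24 h to 7.75, 7.44 and 7.29. Both lines thus lost most of this signal between 24 and 48 h. The fl/fl line was above the control at 24 h, slightly below it at 48 h and further below it at 72 and 96 h. The own change of the list was -2.11 in fl/fl and -1.10 in wt/wt cells.

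Single genes of the list followed the same course. Ccna2 (cyclin A2, which drives S phase and entry into mitosis) read 11.63, 11.70, 9.88, 8.07 and 6.72 in fl/fl cells and 11.28, 11.46, 9.98, 9.43 and 9.50 in wt/wt cells. The lines were close to each other through 48 h, and fl/fl cells were lower at 72 and 96 h. Its contrast was -2.23 ± 0.37, from -1.52 and -2.94. Anln (anillin, of the contractile ring) read 10.48, 10.63, 8.76, 7.18 and 5.40 in fl/fl and 9.96, 10.46, 8.86, 8.69 and 8.75 in wt/wt cells, a contrast of -2.63 ± 0.47, from -1.71 and -3.55. Its level lay over the 40th percentile on 9 of the 10 MEF arrays, so the size of its difference rests in part on a dim value. Bub1, a kinase of the spindle checkpoint, read 9.48, 9.60, 7.53, 6.06 and 4.94 in fl/fl and 8.41, 9.08, 7.05, 7.07 and 7.26 in wt/wt cells. Early fl/fl levels of Bub1 were above the control at every time, and late ones below it. Kif11, the motor that separates spindle poles, read 9.26, 9.38, 7.51, 6.24 and 5.34 in fl/fl and 8.25, 9.01, 6.89, 7.34 and 6.96 in wt/wt cells, with 72 h and 96 h differences of -1.76 and -2.29. Prc1 (a bundler of the spindle midzone, -2.13 from -1.58 and -2.69), Kif20a (a kinesin of cytokinesis, -2.01 from -1.57 and -2.44), Top2a (topoisomerase II, -1.88 from -1.34 and -2.42) and Nuf2 (a kinetochore subunit, -1.85 from -1.64 and -2.05) were also among the 15 lowest named contrasts, as was Pclaf (a PCNA-binding factor, -2.10 from -1.70 and -2.50). Bub1 lay over the 40th percentile on 8 and Kif11, Prc1, Top2a and Nuf2 on 9 of the 10 MEF arrays.

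**Figure D2:**
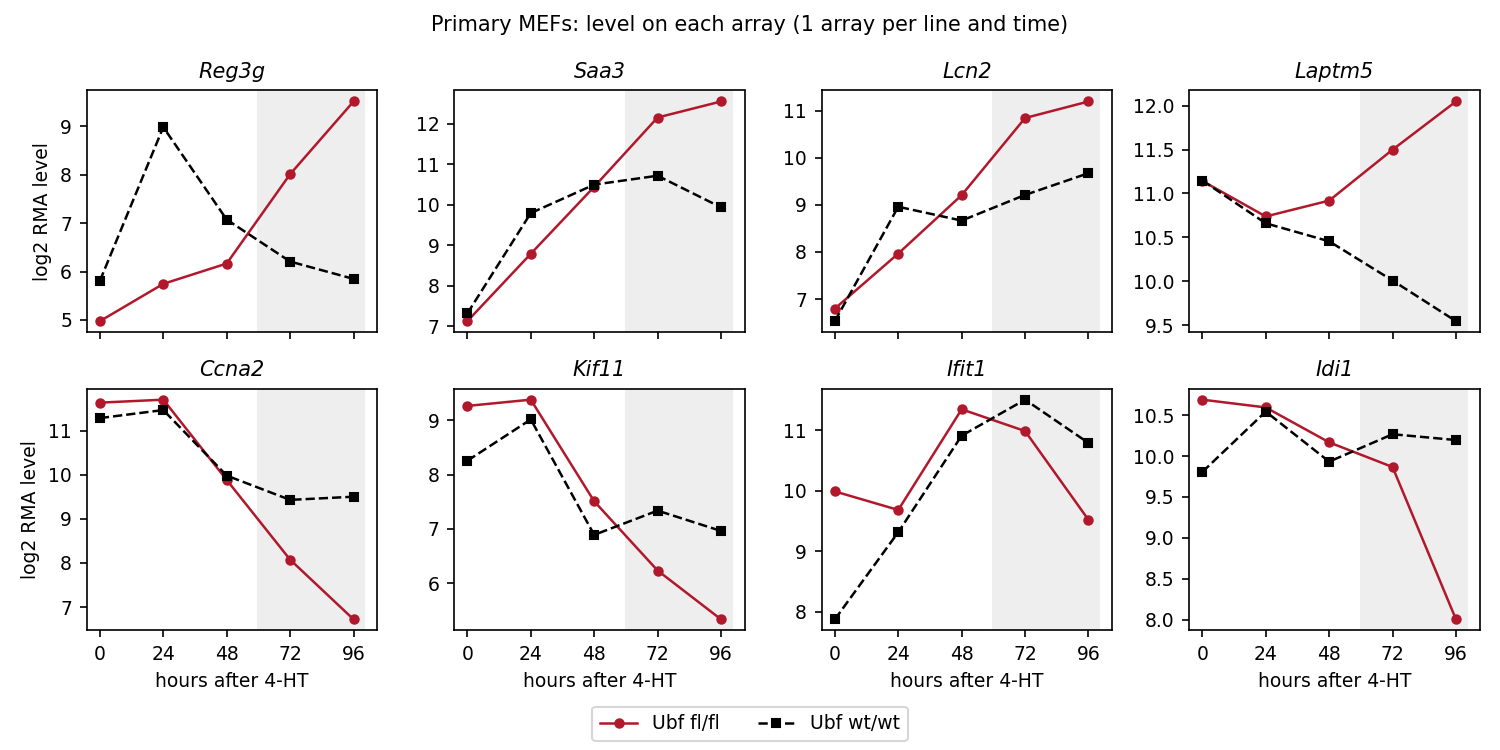
Log2 RMA level of 8 genes on each MEF array (vertical axes) against hours after 4-HT (horizontal axis), with 1 array per point and the late times shaded. Ccna2 and Kif11 keep decreasing in fl/fl cells after 48 h while wt/wt cells level off, and Laptm5 parts in opposite directions.

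Genes of DNA replication were lower by less. Over 55 genes the median contrast was -0.42 ± 0.08 (-0.37 at 72 h and -0.49 at 96 h), and the own changes were -0.98 in fl/fl and -0.67 in wt/wt cells. Past the fold were 4, all lower. These were Ccne2 (cyclin E2, -1.18), Mcm6 (a subunit of the replicative helicase, -1.16 from -0.90 and -1.41), Dbf4 (the activator of the Cdc7 kinase, -1.15) and Prim1 (primase, -1.04 from -0.72 and -1.36). Ccne2 was as low at 72 h (-1.17) as at 96 h (-1.18), whereas Dbf4 was at -0.49 and -1.81. Ccne2 lay over the 40th percentile on 6 of the MEF arrays and read 5.55 and 5.26 in fl/fl cells at 72 and 96 h. Its late differences thus rest in part on dim values. Of 26 replication-dependent histone genes, 2 were past the fold and lower and 1 higher, and the list median of -0.10 was at -0.25 at 72 h and 0.04 at 96 h. H2bc3 (-1.33 from -1.15 and -1.51) and H2ac4 (-1.04 from -0.87 and -1.22) decreased in both lines, and H1f2 (1.06 from 0.90 and 1.23), a linker histone, increased in both. Histone genes are near-identical copies, so their probe sets may share signal.

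The promoters of the mitosis genes are shown because many of them share a pair of short motifs. Mitotic genes are known to be held down in resting cells through the cell cycle homology region, TTTGAA, and driven through CCAAT boxes bound by NF-Y. RefSeq promoter windows (GRCm38.p6, 250 bases before to 50 after a start site, the first window listed for each gene) were found for 12042 of the 15272 genes and searched on both strands. TTTGAA was in 11.9% of all windows, in 43 of 62 windows of the mitosis list and in 22 of 29 of its members past the fold. CCAAT was in 37.5%, 42 of 62 and 22 of 29, and both motifs together in 4.84%, 33 of 62 and 19 of 29. Mitosis genes that were not past the fold held TTTGAA in 21 of 33 windows. Among the 228 lower genes with a window TTTGAA was in 61 (26.8%), in 39 of 199 (19.6%) of those outside the mitosis list, and among the 69 higher genes in 8 (11.6%). The E2F-type motif TTTNGCGC was in 2.15% of all windows, in 12 of 46 of the replication list and in 6 of 62 of the mitosis list, that is in 0 of its 29 members past the fold and in 6 of the other 33. The E box CACGTG and the AP-1 motif TGANTCA were in 9.62% and 5.48% of all windows, in 7.46% and 3.51% of the lower genes and in 4.35% and 7.25% of the higher genes. The 150 bases before the start are printed for the 3 mitosis genes of lowest contrast with both motifs there, among the 62 of 76 that had a window, for the interferon gene of lowest contrast with an interferon-stimulated response element (ISRE), and for the one cholesterol gene with the sterol-type motif TCACNCCAC. Capitals mark CCAAT and TTTGAA on either strand in the first 3 sequences, the ISRE in Ifit1 and TCACNCCAC in Hmgcs1, and the marked sites do not overlap each other. Kif11 lies at chr19:37376232-37376381, plus strand, Top2a at chr11:99024190-99024339, minus strand, Ect2 at chr3:27153879-27154028, minus strand, Ifit1 at chr19:34640739-34640888, plus strand and Hmgcs1 at chr13:119690201-119690350, plus strand.
Kif11: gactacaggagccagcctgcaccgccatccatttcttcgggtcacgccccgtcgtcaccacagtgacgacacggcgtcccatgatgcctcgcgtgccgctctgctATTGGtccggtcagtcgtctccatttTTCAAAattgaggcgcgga
Top2a: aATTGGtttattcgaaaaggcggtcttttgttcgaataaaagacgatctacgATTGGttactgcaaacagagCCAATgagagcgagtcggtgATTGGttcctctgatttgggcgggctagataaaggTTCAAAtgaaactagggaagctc
Ect2: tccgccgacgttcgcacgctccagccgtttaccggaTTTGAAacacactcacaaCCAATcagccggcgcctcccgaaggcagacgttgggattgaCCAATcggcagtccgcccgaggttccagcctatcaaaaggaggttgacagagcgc
Ifit1: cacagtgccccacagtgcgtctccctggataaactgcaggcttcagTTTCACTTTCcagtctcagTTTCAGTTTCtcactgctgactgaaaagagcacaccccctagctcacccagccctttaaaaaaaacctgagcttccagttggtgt
Hmgcs1: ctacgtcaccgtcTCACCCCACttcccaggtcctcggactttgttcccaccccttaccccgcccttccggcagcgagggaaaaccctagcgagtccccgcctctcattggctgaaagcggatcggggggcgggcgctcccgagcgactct
Kif11 holds 1 CCAAT box 45 bases and 1 TTTGAA 19 bases before the start, and Top2a has 4 CCAAT boxes and a TTTGAA at 23 bases. Ect2 (-1.79, a regulator of the cytokinetic ring) has 2 CCAAT boxes and a TTTGAA at 114 bases. A match is a run of letters, not a measured site.

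The highest contrasts, which were picked by their values and belong to no list as a whole, included those of several secreted proteins of inflammation. Reg3g, a secreted antibacterial lectin, read 4.98, 5.75, 6.17, 8.01 and 9.51 in fl/fl cells and 5.81, 8.98, 7.07, 6.21 and 5.85 in wt/wt cells. It was over the 40th percentile on 5 of the 10 MEF arrays, and wt/wt cells had their own peak at 24 h. Its contrast was 4.39 ± 0.77, from 3.46 and 5.32, and its size rests in part on dim values. Saa3 (serum amyloid A3, an acute-phase protein) read 7.12, 8.78, 10.44, 12.15 and 12.55 in fl/fl and 7.31, 9.79, 10.49, 10.71 and 9.93 in wt/wt cells. Both lines increased through 48 h, and then the fl/fl line went on while the wt/wt line stayed near its 48 h level and ended below it. The contrast was 2.44 ± 0.38, from 1.86 and 3.03. Lcn2, which binds bacterial siderophores, read 6.80, 7.97, 9.21, 10.84 and 11.19 in fl/fl and 6.53, 8.96, 8.67, 9.21 and 9.67 in wt/wt cells, and its difference was no smaller at 72 h (1.70) than at 96 h (1.58). Serpina3n, a secreted protease inhibitor, had a contrast of 2.20 ± 0.45, from 1.69 and 2.71, with an own change of 2.56 in fl/fl cells and 0.36 in wt/wt cells. Reg1, of the same lectin family as Reg3g, was at 2.26 ± 0.43, from 1.58 and 2.93, with levels between 6.35 and 8.66 in fl/fl cells.

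The other genes of the 15 highest were of mixed roles. Cyp2f2, a cytochrome P450, read 7.35, 7.78, 9.12, 10.72 and 11.75 in fl/fl and 8.03, 9.26, 9.41, 9.06 and 8.63 in wt/wt cells, a contrast of 3.20 ± 0.46, from 2.47 and 3.93. The fl/fl line started below the control and ended above it. Angptl4, a secreted inhibitor of lipoprotein lipase, was at 2.19 from 1.59 and 2.78, and Lpl, the lipase itself and a marker of adipocytes, at 1.45 from 1.139 and 1.76. Cpz (a secreted carboxypeptidase, 1.99 from 1.40 and 2.59), Npy (neuropeptide Y, 1.95 from 1.48 and 2.42) and Egfl6 (an extracellular matrix protein, 1.92 from 1.52 and 2.33) were the remainder outside the immune genes. In Angptl4 and Cyp2f2 the wt/wt line changed by -0.03 and -0.05 only, and in Npy it changed by -0.97 and the fl/fl line by 0.98.

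The list of NF-kB targets and chemokines, 26 genes measured, had a median contrast of 0.32 ± 0.16 (0.30 at 72 h and 0.39 at 96 h), with 3 past the fold, Saa3, Lcn2 and Ccl9 (1.09 from 0.96 and 1.21). Of its 26 members 21 had a contrast above 0 and 5 below, against 9107 and 6165 of all 15272 genes. Some chemokines outside the list were past the fold as well, and were picked by the naming rule for their values. Ccl11 (eotaxin) went from 7.44 to 11.83 between 0 and 96 h in fl/fl and from 7.37 to 9.47 in wt/wt cells, a contrast of 1.97 from 1.64 and 2.30. Ccl6 (2.11 from 1.72 and 2.50), Ccl3 (1.90 from 1.44 and 2.36) and Ccl8 (1.38 from 1.136 and 1.63) also passed the fold. Of 27 factors known to be secreted by senescent fibroblasts, Ccl8 and Mmp12 (a macrophage elastase, 1.26 from 1.32 and 1.198) were past the fold and the median was 0.26, at 0.28 at 72 h and 0.17 at 96 h.

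Macrophage markers were higher together. All 29 measured members had a contrast above 0, 21 lay above the early range at both late times and 11 were past the fold, with a median of 0.80 ± 0.19 (0.66 at 72 h and 0.93 at 96 h). The list median in fl/fl cells was 9.09, 8.83, 8.90, 9.33 and 9.50, and in wt/wt cells 8.41, 8.51, 8.38, 8.21 and 7.93. The floxed line was above the control already at 0 h, and the lines then moved apart in both directions. The own change of the list was 0.35 in fl/fl and -0.58 in wt/wt cells, so the larger part was a decrease in the control line. Laptm5, a lysosomal protein of blood cells, read 11.14, 10.74, 10.92, 11.50 and 12.05 in fl/fl and 11.15, 10.66, 10.45, 10.01 and 9.54 in wt/wt cells, a contrast of 1.82 ± 0.29, from 1.31 and 2.32. Spi1, the PU.1 transcription factor of myeloid cells, was at 1.55 from 0.96 and 2.14, Fcgr3, an Fc receptor, at 1.42 from 1.10 and 1.74, and Cd68, a macrophage lysosomal protein, at 1.35 from 0.94 and 1.76. Also past the fold were the receptors Cd14 and Itgb2, the signalling adaptors Fcer1g and Tyrobp and the complement genes C1qa, C1qb and C1qc. In Laptm5, Spi1, Fcgr3 and Cd68 the wt/wt line's own change, -0.62 in Fcgr3 to -1.03 in Spi1, was of the order of the fl/fl line's, 0.52 to 0.84.

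In bulk samples more cells of a type and more RNA per cell cannot be told apart. Of 30 macrophage markers on the array 28 lay over the 40th percentile on all 10 MEF arrays and 0 lay below it on all. Their levels summed on the linear scale ran from 23810 to 28730 at the early and 32390 to 37310 at the late times in fl/fl cells, and from 19070 to 21500 and then 12880 to 15640 in wt/wt cells. Several of the highest genes, among them Ccl3, Ccl6, Ccl9, Clec4n (a myeloid lectin receptor, 1.85 from 1.502 and 2.20), Wfdc17 (a small secreted protein of activated macrophages, 1.85 from 1.44 and 2.26) and Mmp12, are known to be made by macrophages. Their part in the higher group was not tested. In iMEFs the median of the macrophage list lay between 6.13 and 6.63 on all 10 arrays, below every MEF array.

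**Figure D3:**
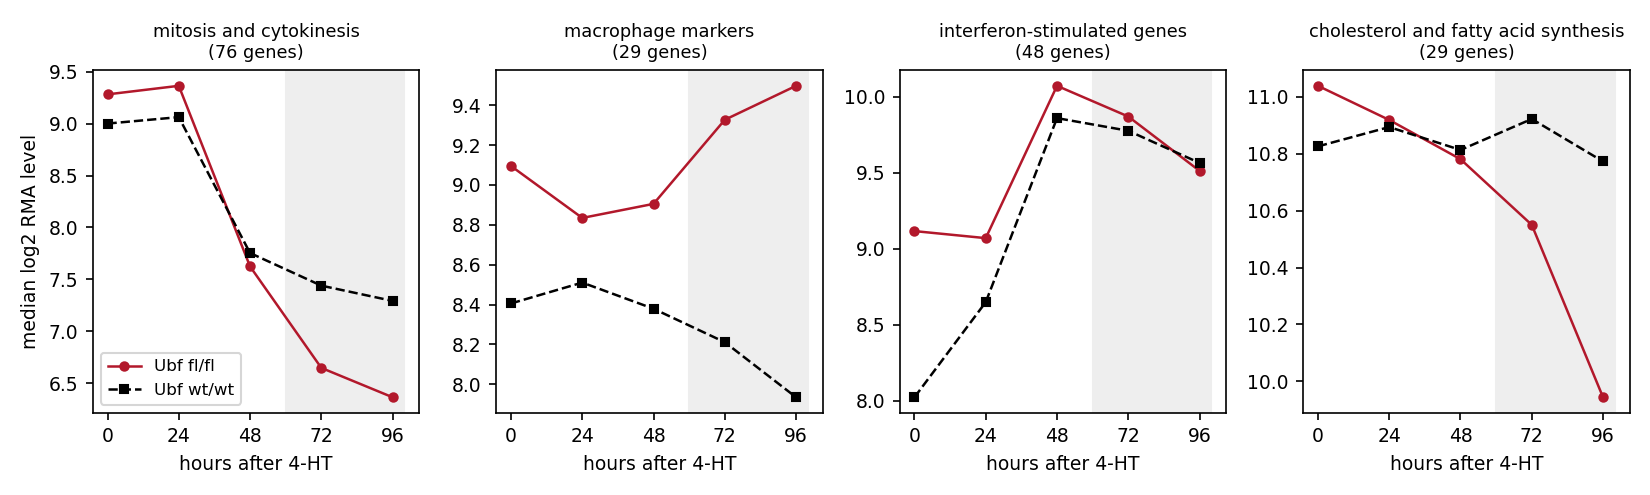
Median log2 RMA level (vertical axes) of 4 gene lists on each MEF array against hours after 4-HT (horizontal axes), with 1 array per point and the late times shaded. Mitosis genes decrease in both lines and go on decreasing in fl/fl cells, macrophage markers part in both directions, and interferon genes start apart and meet late. Cholesterol genes decrease in fl/fl cells from 0 h on, most between 72 and 96 h.

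Interferon-stimulated genes were lower by the contrast although their median increased in fl/fl cells. Over 48 genes the median was -0.52 ± 0.32 (-0.49 at 72 h and -0.48 at 96 h), with 14 past the fold, all lower. The own change was 0.20 in fl/fl and 0.85 in wt/wt cells. The list median of fl/fl cells was 9.12, 9.07, 10.07, 9.87 and 9.51 over time, and that of wt/wt cells 8.02, 8.65, 9.86, 9.78 and 9.57. The lines differed most at 0 h and were close at the late times. Without the 0 h arrays the median contrast was -0.27, and in fl/fl cells taken alone it was above 0. Ifit1, which binds foreign RNA, read 9.99, 9.68, 11.34, 10.99 and 9.52 in fl/fl and 7.87, 9.31, 10.91, 11.50 and 10.79 in wt/wt cells, a contrast of -1.87 ± 0.50, from -1.49 and -2.24. Its level at 96 h was near that at 24 h in fl/fl cells and above it in wt/wt cells. Iigp1 (an immunity GTPase, -1.48 from -1.04 and -1.93), Samd9l (-1.34 from -1.10 and -1.58) and Eif2ak2 (the kinase PKR, -1.33 from -0.72 and -1.94) had own changes of 0.44, -0.29 and -0.09 in fl/fl and of 1.93, 1.05 and 1.24 in wt/wt cells. The ISRE was in 2.9% of all windows, in 17 of 36 of the list and in 7 of 10 of its members past the fold. Ifit1 holds it 104 and 85 bases before the start.

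Genes of cholesterol and fatty acid synthesis were lower, mostly at 96 h. Of 29 genes 25 had a contrast below 0 and 21 lay below the early range at both late times, with a median of -0.44 ± 0.10, at -0.26 at 72 h and -0.60 at 96 h. Idi1, an isomerase of the pathway, read 10.69, 10.59, 10.17, 9.87 and 8.005 in fl/fl and 9.80, 10.54, 9.93, 10.27 and 10.20 in wt/wt cells. The drop in fl/fl cells was greatest between 72 and 96 h, and the contrast was -1.69 ± 0.48, from -0.79 and -2.58. Hmgcs1 (HMG-CoA synthase, -1.22 from -0.76 and -1.69), Stard4 (a sterol carrier, -1.21 from -0.76 and -1.67) and Elovl6 (a fatty acid elongase, -1.10 from -0.76 and -1.44) were also lower at 96 h than at 72 h. All 29 genes decreased in fl/fl cells and 22 in wt/wt cells, against 6873 and 9096 of all 15272 genes. CCAAT was in 18 of 22 windows of this list and TCACNCCAC in 1 of 22, that of Hmgcs1 at 137 bases, against 1.19% of all windows.

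Targets of ATF4, the factor of the amino acid response, had a median of -0.24 ± 0.08 over 43 genes, at -0.17 at 72 h and -0.24 at 96 h, with 3 past the fold. Cth (cystathionine gamma-lyase, -1.38) read 9.16, 8.82, 8.92, 8.48 and 6.99 in fl/fl and 8.68, 8.56, 8.66, 8.62 and 8.94 in wt/wt cells, so its difference was at -0.47 at 72 h and -2.28 at 96 h. Slc7a11, the cystine transporter and also a target of NRF2, was at -1.37 from -0.78 and -1.96, and Aldh1l2, a mitochondrial folate enzyme, at -1.12 from -0.62 and -1.63. Of 18 NRF2 targets Slc7a11 and Nqo1 (a quinone reductase, -1.01 from -0.53 and -1.48) were past the fold and the median was -0.06. Hsp90aa1, an inducible HSP90, was at -1.11 from -0.56 and -1.66, the 1 member past the fold of 17 cytosolic heat shock genes with a median of -0.18. The lowest contrast of that list was -1.42, in another gene whose late differences did not both leave the early range. Psmc6, an ATPase subunit of the proteasome, was at -0.43 at 72 h and -1.97 at 96 h, while the median of 37 proteasome subunits was -0.09.

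Immediate early genes, which respond to growth factors within minutes, were higher mainly through the control line. Over 24 genes the median was 0.34 ± 0.20, at 0.27 at 72 h and 0.46 at 96 h, and 3 were past the fold. Egr1 read 10.01, 9.79, 10.25, 9.75 and 10.86 in fl/fl and 11.13, 10.88, 10.88, 9.89 and 9.73 in wt/wt cells, a contrast of 1.44 ± 0.35, from 0.81 and 2.07. Fl/fl cells were below the control at every early time and above it only at 96 h. Fos (1.41 from 0.88 and 1.95) and Egr2 (1.19 from 0.83 and 1.55) had own changes of 0.45 and -0.14 in fl/fl and of -0.96 and -1.33 in wt/wt cells.

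Genes of the cell surface, matrix and contractile apparatus were found in both directions. Cd24a, a surface glycoprotein, read 10.22, 10.34, 10.02, 9.36 and 7.97 in fl/fl and 9.26, 10.01, 9.72, 10.30 and 10.82 in wt/wt cells, a contrast of -2.42 ± 0.49, from -1.47 and -3.38. The lines crossed between 48 and 72 h. Lipg (endothelial lipase, -2.21 from -1.56 and -2.86) and Npnt (an integrin ligand, -1.81 from -1.47 and -2.14) changed by -1.70 and -0.84 in fl/fl and by 0.51 and 0.97 in wt/wt cells. Cnn1 (calponin, -1.82 from -1.28 and -2.36) and Actg2 (smooth muscle actin, -1.36 from -0.89 and -1.82) were the members past the fold of 29 contractile and SRF/YAP target genes, whose median was -0.21, at -0.16 at 72 h and -0.26 at 96 h. Col10a1, a collagen of hypertrophic cartilage, was at -1.87 from -1.39 and -2.35, through an own change of 1.96 in wt/wt and 0.09 in fl/fl cells, whereas the median of 44 collagens was 0.24 with 38 above 0, at 0.07 at 72 h and 0.42 at 96 h. Fmod (1.24 from 0.62 and 1.87) and Prelp (1.22 from 0.91 and 1.54), small leucine-rich proteoglycans, were higher. Neither reached the fold at 72 h, and their own changes were 0.60 and 1.64 in fl/fl and -0.64 and 0.41 in wt/wt cells. Fap, a surface protease of activated fibroblasts and 1 of the 15 fibroblast markers, was at -1.04 from -0.67 and -1.41. Stmn2 (-1.73 from -1.03 and -2.43) and Map2 (-1.19 from -0.94 and -1.43), markers of neurons that bind tubulin, were lower, while the median of 9 neural and glial markers measured was 0.19 and 7 of the 15 on the array lay below the 40th percentile on all 10 MEF arrays. Aldoc, a glycolytic aldolase, was at 1.21 from 1.01 and 1.40 and Cox6b2, a subunit of cytochrome oxidase, at 1.21 from 0.79 and 1.63, against medians of 0.14 and 0.01 for the lists of glycolysis and hypoxia (33 genes) and of oxidative phosphorylation (77 genes).

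The lists of the RPI machinery, of ribosome biogenesis factors and of cytoplasmic r-proteins had 0 members past the fold. Twistnb of the RPI machinery was at -1.04, from -0.30 and -1.77, but its late differences did not both leave the early range. The RPI machinery had a median of 0.05 ± 0.09 over 21 genes and the cytoplasmic r-proteins one of -0.09 ± 0.04 over 60 genes. The r-proteins were at -0.06 at 72 h and -0.14 at 96 h. Of the 60, 50 had a contrast below 0, against 6165 of all 15272 genes. Both late differences lay below the early range in 18 and above it in 1. In fl/fl cells 56 of the 60 decreased and in wt/wt cells 38. Over 130 ribosome biogenesis factors the median was -0.15 ± 0.12, at -0.02 at 72 h and -0.28 at 96 h. Of these factors 80 had a contrast below 0 and 50 above, with values from -0.96 to 0.89. Both late differences lay below the early range in 28 of them and above it in 11. Fbl, the methyltransferase of box C/D particles, was at 0.28 ± 0.16 and Taf1d, a subunit of the RPI factor SL1, at -0.05 ± 0.16. Box C/D snoRNAs, which guide rRNA methylation, had a median of 0.26 over 29 genes with Snord15b (1.07, at 0.42 at 72 h and 1.72 at 96 h) past the fold, and box H/ACA snoRNAs one of 0.17 over 19 with 0. Targets of p53, known to respond when ribosome production fails, had a median of 0.08 over 32 genes, at 0.09 at 72 h and -0.05 at 96 h, with 0 past the fold. The list holds 35 genes, and Cdkn1a, Bax and Gdf15 were not analysed here. Their own change was 0.43 in fl/fl and 0.31 in wt/wt cells, and 27 of 32 increased in each line, against 8399 and 6176 of all 15272 genes. CDK inhibitors and the Rb family were at -0.32 over 9 genes (-0.18 at 72 h and -0.44 at 96 h), also with 0 past the fold and without Cdkn1a. Of 126 microRNA precursors Mir181b-1 was past the fold (-1.31 from -0.80 and -1.82, over the 40th percentile on 4 of the 10 MEF arrays), and the median was 0.16.

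The lists of other tissues gave few genes past the fold. Adipocyte markers (0.27 over 8 genes) had Lpl. Endothelial (0.23 over 10), epithelial (0.02 over 8), skeletal muscle (0.17 over 16) and cartilage and bone markers (0.25 over 9) had 0, and Pecam1, Cdh5, Emcn, Epcam and Esrp1 lay below the 40th percentile on all 10 MEF arrays. Lysosomal genes (0.15 over 39), matrix proteins other than collagens (0.11 over 34), proteases and inhibitors of the matrix (0.22 over 24), endoplasmic reticulum chaperones (-0.14 over 20), mitochondrial r-proteins (0.09 over 77), the BCL2 family (0.12 over 14), ERK feedback genes (0.16 over 13), Id genes and BMP/TGF-beta targets (0.01 over 14) and the Myc network (0.10 over 11) had medians between -0.14 and 0.22, against 0.09 over all genes.

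**Figure D4:**
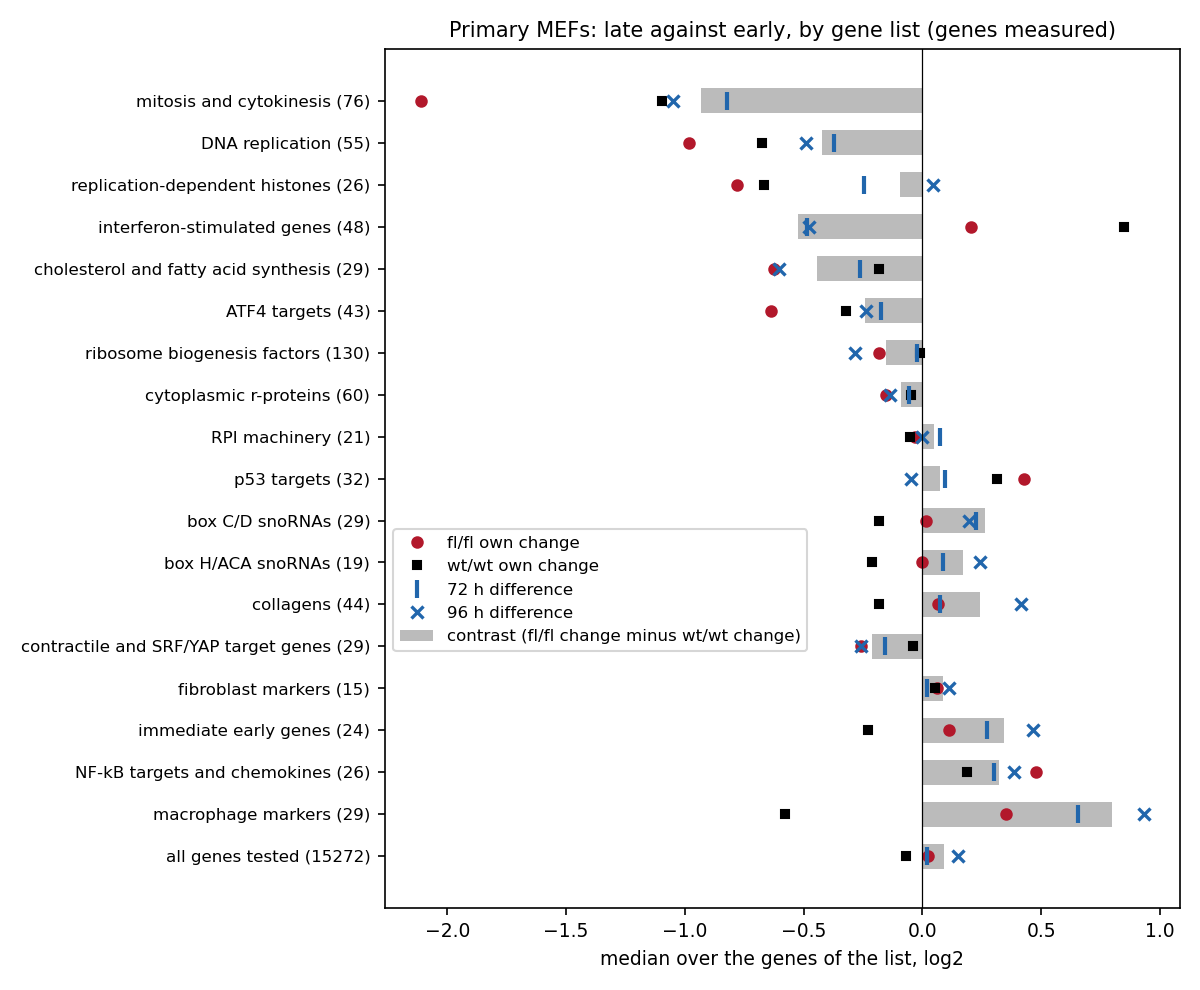
Median over the measured genes of 18 lists and of all genes (horizontal axis, log2) of the MEF contrast (bars), of each line's own change from early to late (circles fl/fl, squares wt/wt) and of the 72 h and 96 h differences (vertical ticks and crosses). Mitosis genes decreased in both lines, interferon genes increased more in wt/wt cells, and macrophage markers changed in opposite directions in the lines.

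The same contrast was tested in the iMEF arrays, which the choice of genes did not use. By limma with Benjamini-Hochberg adjustment 0 of 15272 genes (0%) passed an adjusted p of 0.05, and 669 had an unadjusted p under 0.05. These counts depended on the placing of the 48 h arrays. Without them 41 genes passed, 34 higher and 7 lower, and 2418 had an unadjusted p under 0.05. With 48 h counted as late 14 passed, all higher, and 3375 had an unadjusted p under 0.05. The study reports that UBF protein was nearly gone from its cultures before the late times, so the early arrays may include depleted cells. Its part in these counts was not tested. With 48 h counted as early the median standard error was 0.24. In a simulation of this test 40 of 100 genes changed by 1 and 98 of 100 changed by 2 were recovered. A 2-fold change in a single gene could thus be missed. The simulated noise was independent between genes, so these rates may not hold for the real arrays. The fl/fl iMEF array at 24 h, 1 of the early arrays, stood apart with an SD over genes of 0.62 for the fl/fl minus wt/wt difference, against 0.30 to 0.38 at the other times.

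Of the 108 genes higher in MEFs, 73 had an iMEF contrast above 0, against 40.5% of all genes, and 7 had an unadjusted p under 0.05 in that direction (1.62% of all genes) and 4 in the other. Of the 288 lower genes, 222 were below 0, against 59.5% of all genes, and 10 had an unadjusted p under 0.05 in that direction (2.76% of all genes) and 9 in the other. Across the 15272 genes the contrasts in MEFs and iMEFs had r = 0.26, a description over genes that are not independent, from arrays that share the normalization but no cells. The 72 h differences had r = 0.25 and the 96 h differences r = 0.11. The fl/fl iMEF array at 24 h is an early array in all of these iMEF values. The step into it ran against the step of the MEF difference from 72 to 96 h (r = -0.63). The counts of signs were not taken without that array, so its part in them was not tested.

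The lists differed in how their iMEF values lay. Mitosis genes had an iMEF contrast below 0 in 75 of 76 and a median of -0.45, against -0.07 over all genes, and 8 had an unadjusted p under 0.05, all lower. Without the 24 h arrays that median was -0.22. Kif20a was at -0.84 ± 0.30 and Ccnb2 at -0.64 ± 0.23 there, both with an adjusted p of 0.857 in limma. The iMEF standard error was 0.30 for Ccna2 but 0.52 for Anln, 0.58 for Kif11 and 0.79 for Bub1, against a median of 0.24. Cholesterol genes were below 0 in 29 of 29 with a median of -0.39, and -0.29 without the 24 h arrays. Macrophage markers had a median of 0.15, which was 0.03 without the 24 h arrays. Interferon genes were above 0 in 36 of 48 with a median of 0.21, the sign opposite to that in MEFs, and -0.02 at 96 h alone. Box C/D snoRNAs lay at 1.13 in iMEFs against 0.26 in MEFs, and box H/ACA snoRNAs at 1.04 against 0.17. By limma 21 of 29 and 9 of 19 of them were higher with an unadjusted p under 0.05, against 1.62% of all genes. Both snoRNA medians were lowest on the fl/fl iMEF array at 24 h, an early time, at 8.10 and 7.39. Replication-dependent histones lay at 0.49 in iMEFs against -0.10 in MEFs. The differences between the cell types were not tested.

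Single genes of the MEF groups differed in iMEFs as well. Lcn2 was higher in both, at 1.64 ± 0.40 in MEFs and 1.13 ± 0.27 in iMEFs (limma, unadjusted p = 0.00327, adjusted p = 0.857), and Stmn2 lower in both, at -1.73 and -1.27 ± 0.28. Slc7a11 was at -1.37 in MEFs and 1.08 ± 0.20 in iMEFs, and Actg2 at -1.36 and 1.08 ± 0.25, each with an adjusted p of 0.857 in limma. Of the 7 named genes past 2 and higher in MEFs, Reg3g, Cyp2f2, Reg1 and Serpina3n lay between -0.29 and 0.12 in iMEFs, and Saa3, Angptl4 and Ccl6 lay at 0.39, 0.45 and 0.39. With 48 h counted as early, none of the genes past the fold in MEFs passed the adjusted threshold in iMEFs. Without the 48 h arrays 1 gene of the higher and 2 of the lower group passed it. With 48 h counted as late 1 of the higher group did. A p that misses the threshold does not show that a gene did not change.

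**Figure D5:**
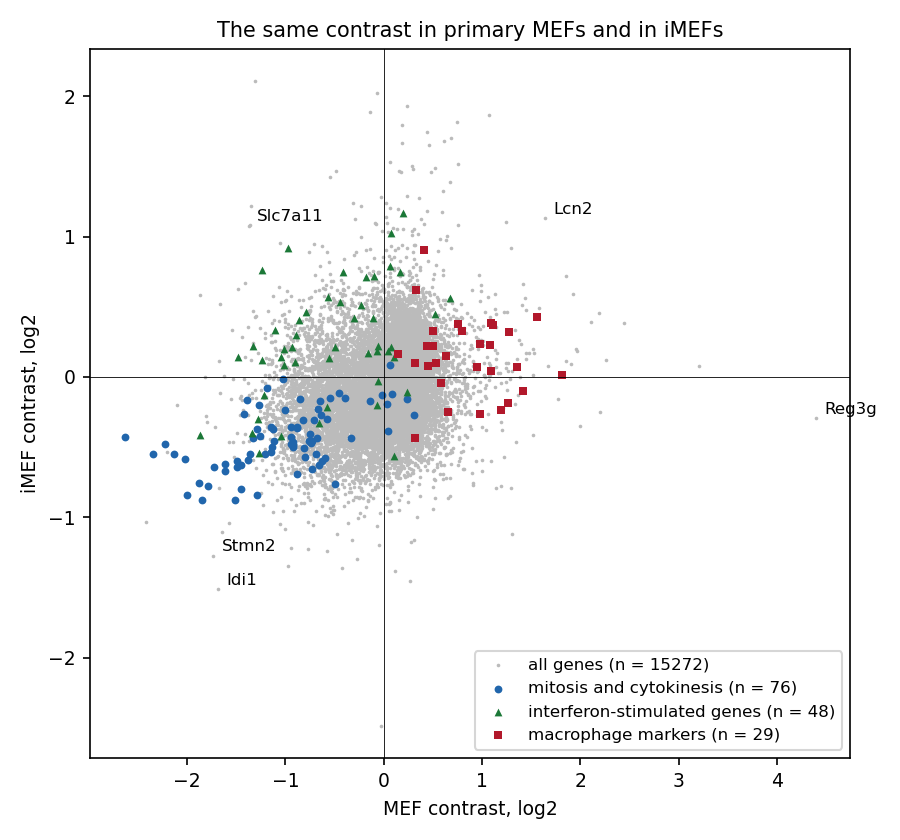
Contrast in iMEFs (vertical axis) against the contrast in primary MEFs (horizontal axis), both in log2 units, for 15272 genes with 3 lists marked. Of 76 mitosis genes, 75 lie below 0 in iMEFs, while the macrophage markers lie to the right of 0 in MEFs and on both sides of 0 in iMEFs.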

How the data were processed

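The authors deposited log2 values, 1 per probe set and array, made by RMA-sketch in Affymetrix Power Tools version 1.14.4 over all 20 arrays together. RNA was purified by acid phenol and then on RNeasy columns, which recover short RNAs incompletely. By its methods the study used Mouse Gene 2.0 ST arrays, but the 35556 probe sets matched an annotation of Mouse Gene 1.0 ST. A single gene symbol was given for 21789 of them, and the 1621 with several and the 12146 with none were left out. Each of 19938 genes was read from its brightest probe set on average, and 15272 were kept that passed the 40th percentile on at least 2 arrays, in place of the detection p-values used by the study. Arrays give no read depth, so their number limits the precision.

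The MEF contrast was computed in Python 3.11.15 with pandas 2.3.3. Standard errors in MEFs and the iMEF test came from limma 3.58.1 in R 4.3.3, with a term for each time, for genotype and for genotype at the late times (3 residual degrees of freedom plus a prior of 4.84 in iMEFs). Its p-values measure the scatter between times of 1 line per genotype. The self-test on simulated data gave 10 false calls among the unchanged of 15272 genes. In MEFs the same fit, which the choice of genes makes no test, gave 0 genes at an adjusted p of 0.05 and 3447 at an unadjusted p under 0.05.

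The members and the 41 gene lists were chosen with earlier results of these data known. Genes were named by a rule: the 15 largest contrasts past the fold in each direction (small RNAs and predicted genes left out), the gene nearest the fold on either side, up to 4 members past the fold of each list, and Ubtf, Taf1d and Fbl. Cd14, Itgb2, Fcer1g, Tyrobp, C1qa, C1qb, C1qc, Ccnb2, Ect2 and Twistnb fall outside it and were named after their values were seen. So were markers below the 40th percentile. Alternative settings were a scaling on mRNA probe sets, other filters on low values, the mean of the probe sets of a gene, other early and late times, fl/fl cells alone, a 1.5-fold threshold, the fold alone and, in iMEFs, a model of both cell types and trend and robust settings.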

Additional observations from a re-analysis of the deposited data

Results flagged for a closer look

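In 7 named genes both late differences lay beyond the early ones in opposite directions in MEFs and iMEFs, and the difference between the cell types was not tested. Slc7a11 (1.08 in iMEFs), Actg2 (1.08), H2ac4 (0.53) and H2bc3 (0.47) were lower in MEFs and higher in iMEFs. Hvcn1, a proton channel (-0.67 in iMEFs), Ccl9 (-0.60) and Cpz (-0.35) were higher in MEFs and lower in iMEFs.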

How the results depend on the processing

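No paired analysis was possible because no replicate numbers link the arrays, with 1 array per line and time. The lines were compared within each time, except where fl/fl cells were taken alone. In MEFs the count past the fold was 44 higher and 60 lower at 72 h alone and 251 and 1285 at 96 h alone. With 48 h counted as late it was 40 and 54, and at 1.5-fold 468 and 1207. Without the 24 h arrays 605 genes were lower, of which 280 were among the 288. Scaling on mRNA probe sets gave 127 and 220, and other filters, other probe sets, the fold alone and the other early times stayed within 1.5 times. In fl/fl cells alone 111 were higher and 244 lower, of which 55 and 98 were shared.

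The median of the mitosis list was -0.72 with 48 h as late and -2.11 in fl/fl cells alone, that of the macrophage markers 0.58 and 0.35, and that of the cholesterol list -0.29 and -0.63. The cholesterol median was -0.26 at 72 h alone and -0.60 at 96 h alone. In fl/fl cells alone the interferon median turned to 0.20, and Iigp1 (0.44), Col10a1 (0.093), Mir181b-1 (0.29) and Egr2 (-0.14) changed sign. In iMEFs 41 genes were called without the 48 h arrays, 14 with 48 h as late and 1 in the model of both cell types, and 0 under the other alternatives. Of the 41, 1 was higher and 2 were lower in MEFs past the fold. Causes were not tested. With 1 array per condition no value here carries an error between cultures.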
